A study of Mus musculus with 82 samples.

Results

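Epidermal growth factor (EGF) was compared with control in primary mouse aortic vascular smooth muscle cells (aVSMC) after 48 h, in all pairs of control and EGF libraries that share a culture set in the 48 h files. A culture set is the group of libraries that carry the same replicate number in the same file, and 10 sets gave 10 pairs, so 20 of the 82 libraries of the series were used. Of these, 5 sets belonged to the batch in which EGF was combined with the thromboxane analogue U46619 (batch 1, replicates 1 to 5) and 5 to the batch in which it was combined with angiotensin II (batch 2, replicates 1, 2, 4, 5 and 6). The cells came from the aorta of C57BL/6 mice and had been passaged in a growth medium that itself held serum, insulin, hydrocortisone and EGF. Control and EGF cultures were then kept for 24 h without any supplement, and EGF was then given at 10 µg/L in the same bare medium. The study's methods assign each replicate to a different mouse, whereas the labels give 5 mouse numbers for the 10 sets, and mouse 7 has 5 of them. The p-values below take the sets as independent.

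EGF binds the EGF receptor (EGFR), a receptor tyrosine kinase that pairs with itself or with its relatives ERBB2, ERBB3 and ERBB4. The active receptor feeds the RAS-ERK and PI3K-AKT cascades, which raise cyclin D and MYC and switch on genes for their own inhibitors, the Sprouty, SPRED and DUSP proteins. In cultured smooth muscle cells, growth factors of this kind are known to favour proliferation over the contractile state, in which the cells make smooth muscle actin and elastin.

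The 20 libraries held 20338025 to 33916114 counts, with a median of 25383434 in control and 27091089.5 in EGF. Levels are given as FPM, the fragments per 1000000 counts of the TMM-scaled library, and differences within a set were taken on log2(FPM + 0.5). In 9 of the 10 sets the control and the EGF library resembled each other, with a correlation of log2 levels of 0.97 to 0.996 over 10394 genes with a mean of at least 5 FPM. The pair of replicate 4 of batch 2 reached 0.852. Its control library correlated at 0.854 on average with the other libraries of its own set and at 0.996 with the EGF library of replicate 2 of the same batch, which in turn correlated best with this library. Whether the label of this control library is right was not tested, and every value of batch 2 and of the 10 sets together that includes it rests on that label. The difference between EGF and control had an SD over genes of 0.998 in that set and of 0.159 to 0.478 in the other 9. A difference of more than 1 on the log2 scale was seen for 15.9% of the genes in that set and for 0.0385% to 3.52% in the others. Each result was therefore also obtained without this set.

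**Figure D1:**
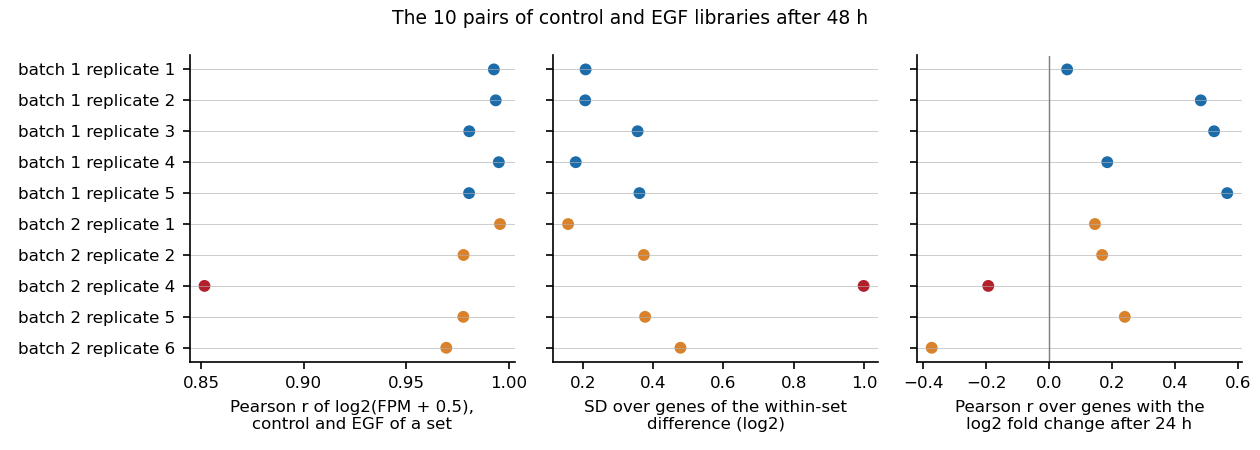
The 10 pairs of control and EGF libraries, one row per culture set, with the correlation of the control library with its EGF partner, the SD over genes of the difference between EGF and control on the log2 scale, and the correlation of that difference with the 24 h log2-fold change. Replicate 4 of batch 2 has the lowest partner correlation (0.852) and the highest SD (0.998).

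Markers of smooth muscle were present at unequal levels. Acta2 had the highest, with 515 to 7500 FPM in control and 462 to 6806 FPM in EGF. Myh11 had 0.844 to 269 and 0.308 to 192 FPM, and Myocd had at most 1.14 and 1.24 FPM. The summed level of 8 tested smooth muscle markers was 586 to 8246 FPM in control and 539 to 7472 FPM in EGF, and the markers Cnn1 and Tagln were listed at 0 in all libraries, as were all 7075 genes of chromosomes 9, X, Y and MT and the 657 genes of chromosome 8 that start after position 97876154. Markers of other cells were present as well. The sum was 49.1 to 2487 FPM in control and 42.7 to 2496 FPM in EGF for endothelial cells, with Cdh5 at 0. For macrophages and leukocytes it was 45.7 to 731 and 48.1 to 773 FPM, and for adventitial fibroblasts 861 to 3540 and 878 to 5259 FPM. Epithelial markers summed to 14.1 to 530 and 7.53 to 842 FPM, with Cdh1 at 0, and Schwann cell markers to 1.23 to 39.3 and 0.918 to 40 FPM. The epithelial sum came nearly all from the keratins Krt18 and Krt19. The markers Epcam, Krt5, Krt14 and Cldn4 stayed under 1 FPM in all control and EGF libraries. Over all marker lists, 1 gene had an unadjusted p under 0.05 in the 10 sets together, the smooth muscle marker Itga8. More had one without replicate 4 of batch 2. Lower were 4 of 8 smooth muscle, 4 of 9 macrophage and leukocyte and 2 of 3 Schwann cell markers (4.09% of all genes). Higher were 2 of 9 endothelial, 1 of 8 fibroblast and 2 of 2 tested epithelial markers, Krt18 and Krt19 (3.78% of all genes). The ranges of control and EGF overlapped for each of these lists. The median sum was 2107 FPM in control and 2391 FPM in EGF for smooth muscle, and 1213 and 1462 FPM for fibroblasts. It was 402 and 376 FPM for endothelial cells and 107 and 89.2 FPM for macrophages and leukocytes. For epithelial markers it was 42.9 and 46.4 FPM, and for Schwann cell markers 13.7 and 6.35 FPM. The part of other cells in the results below was not tested. In bulk RNA, fewer cells of a type and less RNA per cell cannot be told apart.

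After 48 h, no gene passed the test for EGF against control. With edgeR's quasi-likelihood test over 15796 genes, 0 genes had a false discovery rate (FDR) under 0.05 (0.0%), and the lowest FDR was 0.362. At an unadjusted p under 0.05 there were 319 genes with a higher (2.02%) and 455 with a lower level in EGF (2.88%), 774 in all (4.9%). DESeq2 and limma-voom also called 0 genes, with 822 and 877 at an unadjusted p under 0.05, and edgeR's likelihood ratio test called 3. Without replicate 4 of batch 2, 0 genes were called, and 597 higher (3.78%) and 646 lower genes (4.09%) had an unadjusted p under 0.05, 1243 in all (7.87%).

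The estimates were narrow. Over the 10394 genes with at least 5 FPM the median SE of the log2-fold change was 0.0865 and the median size of the change was 0.059. The 95% interval lay within ±1 for 10228 of them (98.4%). A log2-fold change beyond 1 in size was seen for 12 of these genes. On simulated counts of the same 15796 genes, the test recovered 62 of 66 genes set to differ 4-fold, 50 of 67 at 2-fold and 44 of 67 at 1.5-fold. These counts were drawn independently, with the same change in every set. They held no change particular to a batch and no control library unlike its set. The shares therefore do not give the recovery in the data.

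The mRNA of the EGF receptor did not differ in level beyond the spread between sets. Protein is not part of these data, and the study reports that EGF lowered the level of EGFR protein. Egfr (gene body at GRCm38 chr11:16752203-16918158) had 31.9, 58.6 and 177.8 FPM as the lowest, median and highest level in the 10 controls, and 27.7, 67.3 and 151.4 FPM with EGF. The groups overlapped, and EGF was higher in 6 of 10 sets. The mean difference within a set was 0.115 ± 0.563 (SD, n = 10, two-sided exact permutation of the signs, p = 0.73, adjusted over 3 receptors 0.896). Without replicate 4 of batch 2 it was -0.049 ± 0.237 (n = 9, exact p = 0.543, adjusted 0.543). Erbb2, the partner without a ligand of its own, stood at 28.3 to 44 FPM in control and 21.4 to 38.6 FPM in EGF, with a log2-fold change of -0.07 ± 0.06 (SE). Erbb3 was low, with a median of 0.469 FPM in control and 0.393 FPM in EGF and a log2-fold change of -0.61 ± 0.46.

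The mRNAs of the receptors of the stimuli used beside EGF were measured in the same pairs. Agtr1a, the angiotensin II receptor, was low, with a median of 1.23 FPM in control and 1.09 FPM in EGF. Its mean difference was -0.205 ± 1.08 (SD, n = 10, exact p = 0.525, adjusted 0.896), with a lower level in 8 of 10 sets. Without replicate 4 of batch 2 it was -0.481 ± 0.673 (n = 9, exact p = 0.00781, adjusted 0.0234), where 0.00391 is the smallest p that 9 sets allow. With replicate 4 of batch 2 kept and replicate 5 of batch 1 left out, the mean difference was 0.00648 (n = 9). Both sets were not left out together. Tbxa2r, the thromboxane receptor, had a median of 48.2 FPM in control and 58.4 FPM in EGF and a mean difference of 0.0826 ± 0.951 (n = 10, exact p = 0.896, adjusted 0.896).

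In the 24 h libraries of the series (6 control and 6 EGF libraries from 6 other mouse numbers), the same test called 5 of 14653 genes (0.0341%). This count was unstable. DESeq2 called 425, and leaving out 1 mouse gave 0 to 371, with 0 without replicate 1, 2 or 5 and 371 without replicate 6. Their 48 h values come from other libraries. Scg2 (chr1:79434669-79440120), which encodes the granin secretogranin II, was the strongest of them, with a log2-fold change of -1.97 after 24 h. After 48 h the lowest, median and highest level were 0.232, 4.14 and 37.9 FPM in control and 0.248, 2.11 and 37.2 FPM in EGF. The ranges overlapped nearly in full, and EGF was lower in 8 of 10 sets. The log2-fold change was -1.05 ± 0.51 (SE, edgeR FDR 0.971), and -1.45 without replicate 4 of batch 2 (edgeR FDR 0.111).

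Fbln7, a fibulin of the matrix, had a log2-fold change of -1.88 after 24 h and of -0.43 ± 0.30 after 48 h, or -0.69 without replicate 4 of batch 2. Cdca7, a cell cycle gene under MYC and E2F, stood at 1.35 after 24 h and 0.28 ± 0.16 after 48 h. Ung, which removes uracil from DNA, stood at 1.68 and -0.09 ± 0.18. Mef2b, a transcription factor with under 1 FPM in all 20 libraries, stood at -2.49 and 0.39 ± 0.35. These genes were chosen by their 24 h values, which favours a smaller value after 48 h, so no test of the difference is given for them.

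**Figure D2:**
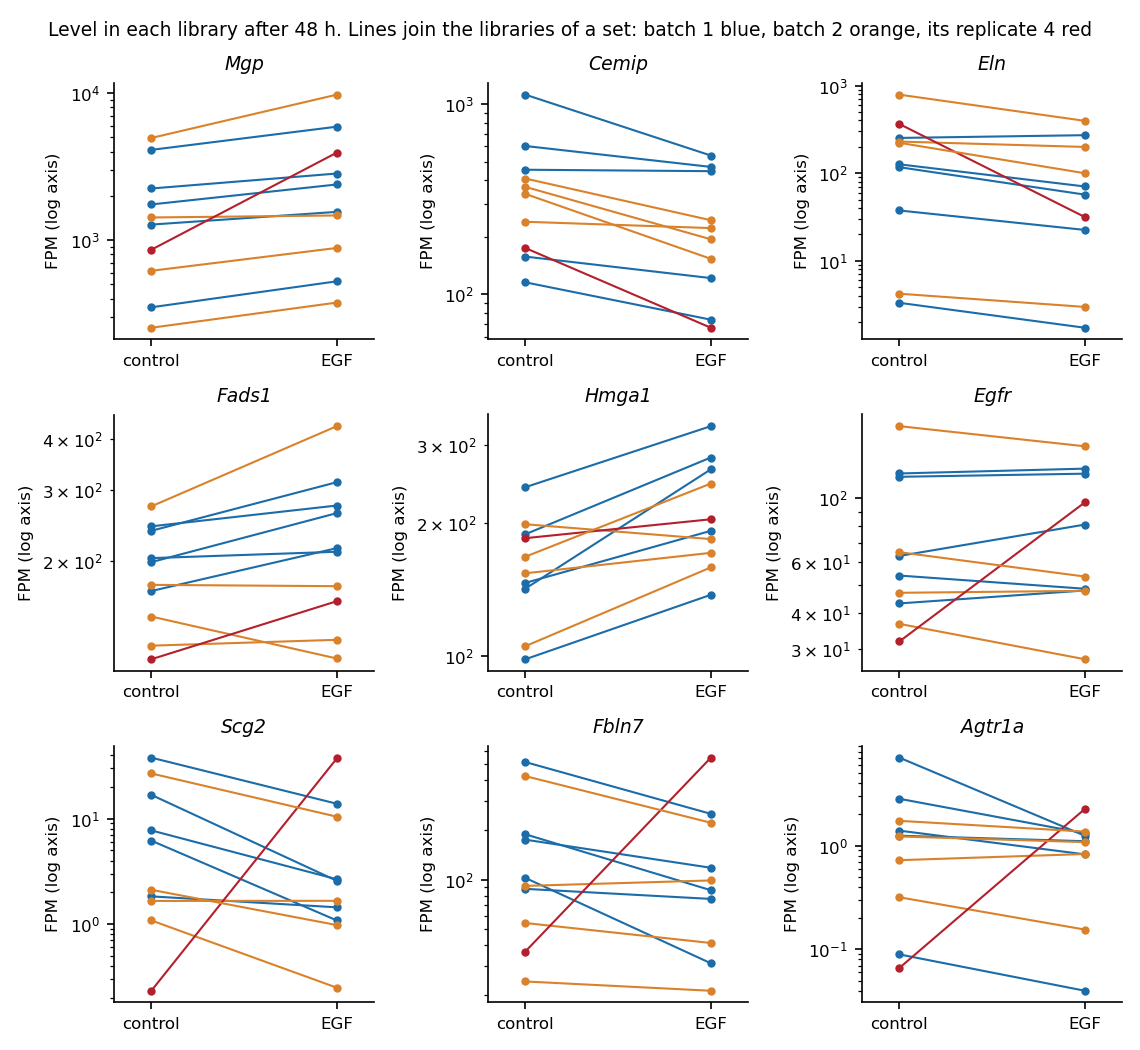
Level of Mgp, Cemip, Eln, Fads1, Hmga1, Egfr, Scg2, Fbln7 and Agtr1a in each of the 20 libraries after 48 h in FPM on a log axis, with control and EGF libraries of a culture set joined by a line, batch 1 in blue, batch 2 in orange and its replicate 4 in red. The lines of replicate 4 of batch 2 run apart from the others for several genes, such as Scg2.

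While no gene passed the test, 18 genes were higher (0.114%) and 18 lower (0.114%) in EGF than in control in all 10 sets. Without replicate 4 of batch 2, 50 genes were higher (0.317%) and 49 lower (0.31%) in all 9 sets. Random signs alone also place some genes on the same side in every set. Whether these counts exceed that number was not tested. The genes with the smallest p among those with at least 5 FPM are described here, and each of them missed the FDR threshold. They were chosen by sign and p in the same pairs, which favours intervals that leave out no change. Their folds and intervals are therefore a description and no test.

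Sting1 (chr18:35733679-35740554), the adaptor that answers cyclic dinucleotides, had 28.3, 37.8 and 111 FPM as the lowest, median and highest level in control and 33.4, 46.5 and 167.999 FPM in EGF. Its fold was 1.30 (95% interval 1.15 to 1.46, edgeR FDR 0.362). Irf5, an interferon regulatory factor, had a median of 5.23 FPM in control and 6.84 FPM in EGF (1.28-fold, interval 1.14 to 1.45). Oas2, an interferon-induced oligoadenylate synthase, had medians of 5.13 and 7.98 FPM (1.53-fold, interval 1.20 to 1.94). After 24 h the log2-fold changes were 0.63 for Sting1, -0.33 for Irf5 and -0.00032 for Oas2.

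Mgp (chr6:136872435-136875823), the matrix Gla protein that restrains calcification of the vessel wall, had 254, 1351 and 4953 FPM in control and 376, 1974 and 9759 FPM in EGF. Its log2-fold change was 0.60 ± 0.18, and 0.48 without replicate 4 of batch 2. The remaining genes of this group were Fam117a (0.25 ± 0.08), Gtdc1 (0.22 ± 0.07), Fam78b (0.55 ± 0.18) and the neuropeptide receptor Npy4r (0.50 ± 0.17), which ranged from 0.0635 to 46.2 FPM over the controls.

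Cemip (chr7:83932857-84086502), which takes part in the breakdown of hyaluronan, had the smallest p among the genes lower in all 10 sets. It had 116, 353 and 1124 FPM in control and 66.7, 209 and 538 FPM in EGF. Its log2-fold change was -0.70 ± 0.17 (edgeR FDR 0.686), -0.61 without replicate 4 of batch 2 and -1.07 after 24 h. Rasl11b, a RAS-like protein, stood at -0.52 ± 0.14, and Myom1, a structural protein of the M-band of striated muscle, at -0.59 ± 0.18. Rhobtb1 had -0.35 ± 0.12 and Spg20 -0.14 ± 0.05. For the other 3 genes of the group, replicate 4 of batch 2 weighed on the value. Cyp26b1, which breaks down retinoic acid, had -0.63 with and -0.38 without it. Cbr2, a carbonyl reductase, had -1.01 and -0.37, and Ndnf had -0.60 and -0.21.

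**Figure D3:**
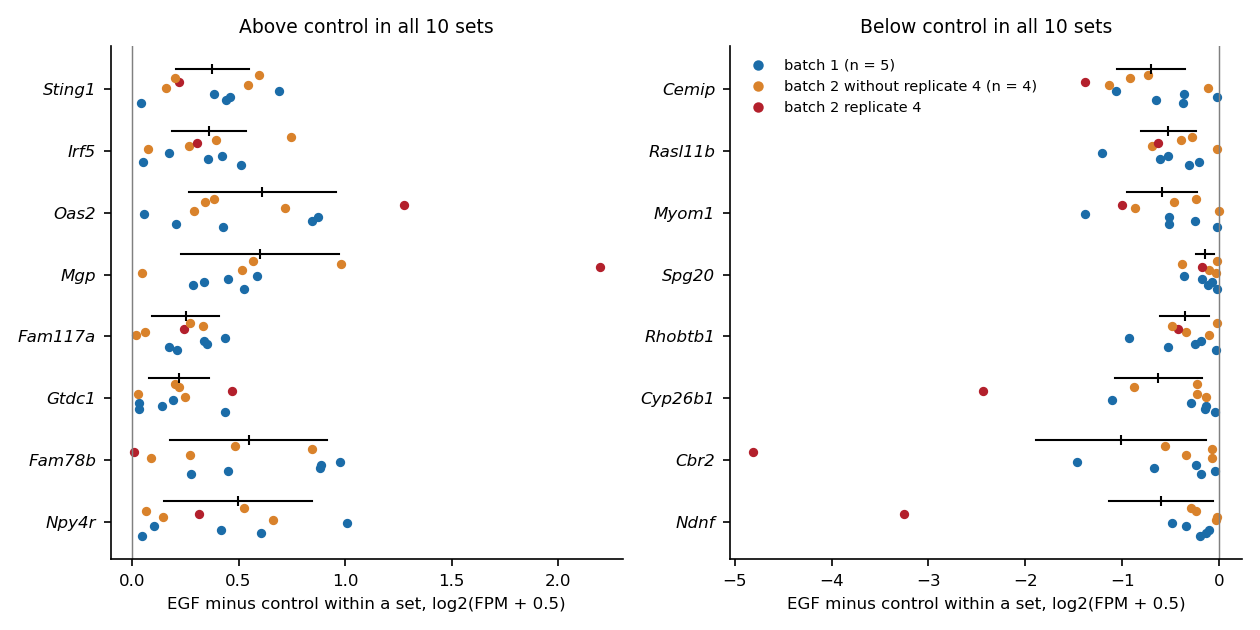
Difference between EGF and control within each of the 10 culture sets on log2(FPM + 0.5), for genes that lie on the same side of control in all 10 sets. Points are sets (batch 1 blue, batch 2 orange, its replicate 4 red), the black bar is the fitted log2-fold change with its 95% interval, and replicate 4 of batch 2 lies far from the others for Cbr2 (-4.81), Ndnf (-3.25) and Cyp26b1 (-2.43).

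The genes were then taken by the role of their products. Each list below stands beside the shares of all genes in the 10 sets together. Of all genes, 47% had a positive log2-fold change. An unadjusted p under 0.05 was reached by 2.02% as higher and by 2.88% as lower genes. Of the negative regulators that EGFR and ERK induce, 20 of 23 had a positive log2-fold change, beside 47% of all genes, with a median of 0.15. No member passed the FDR threshold, and 4 had an unadjusted p under 0.05, all higher, where 2.02% of all genes were. These were Spry4, a Sprouty protein (0.32 ± 0.10), Spred1 (0.25 ± 0.09), Dusp6, the phosphatase of ERK (0.31 ± 0.13), and Socs5 (0.28 ± 0.09). Spry4 had 8.66, 10.4 and 24.6 FPM in control and 10.4, 15.4 and 29.5 FPM in EGF, and the groups overlapped. Its log2-fold change was 0.54 in batch 1 and 0.10 in batch 2. The median of the list was 0.28 in batch 1, where 19 of 23 were positive, and 0.03 in batch 2, where 14 were. In batch 2 without replicate 4, the median of the mean differences was -0.01. Of these genes, 6 of 23 had a smaller log2-fold change after 48 h than after 24 h at an unadjusted p under 0.05, where 9.93% of all genes had. Spry4 had stood at 2.13 after 24 h and Dusp6 at 1.43.

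Of the genes read as ERK transcription output, 14 of 17 had a positive log2-fold change (47% of all genes), with a median of 0.20, and 5 had an unadjusted p under 0.05, all higher (2.02% of all genes). These were the ETS factors Etv4 (0.58 ± 0.16, higher in 9 of 10 sets) and Etv1 (0.66 ± 0.21), the AP-1 subunit Fosl1 (0.46 ± 0.20), Myc (0.18 ± 0.08) and the chromatin protein Hmga1 (0.43 ± 0.12). Hmga1 has a near-identical copy in the genome, and reads shared with it make its value uncertain. The median of the list was 0.41 in batch 1 and -0.08 in batch 2. In batch 2 without replicate 4, the median of the mean differences was 0.12. Ccnd1, cyclin D1, had 282 to 600 FPM in control and 218 to 694 FPM in EGF and a log2-fold change of 0.21 ± 0.12, beside 0.91 after 24 h.

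Of the ligands of the EGFR family, 5 of 8 were positive and 1 had an unadjusted p under 0.05, the neuregulin Nrg2 (0.50 ± 0.24). Nrg2 stood at 0.27 without replicate 4 of batch 2 and no longer had one. Nrg1 stood at -0.26 ± 0.30, and at 0.19 without replicate 4 of batch 2. Hbegf stood at -0.26 ± 0.19, and at 0.02 without it. Of the AP-1 and EGR factors 9 of 14 were positive and only Fosl1 had an unadjusted p under 0.05. Maff had -0.10 ± 0.12 and Fosl2 -0.10 ± 0.08. In the MYC network 8 of 12 were positive, with Max at 0.08 ± 0.06 and Mxd4 at 0.0016 ± 0.073.

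All 28 tested genes of cholesterol and fatty acid synthesis had a positive log2-fold change, with a median of 0.18. None passed the FDR threshold, and 9 had an unadjusted p under 0.05, all higher, where 2.02% of all genes did. Fads1 (chr19:10182888-10196877), a desaturase of long-chain fatty acids, had 114.8, 187.1 and 273.4 FPM as the lowest, median and highest level in control and 115.3, 213.5 and 431.0 FPM in EGF. The groups overlapped, and EGF was higher in 8 of 10 sets, with a fold of 1.17 (interval 1.04 to 1.31, edgeR FDR 0.886). Among the others were the master regulator Srebf1 (0.17 ± 0.06), the desaturases Fads2 (0.25 ± 0.09) and Scd1 (0.27 ± 0.12), the sterol carrier Stard4 (0.27 ± 0.10), and the enzymes Acat2 (0.25 ± 0.10), Lss (0.29 ± 0.13) and Fdft1 (0.26 ± 0.12). Scd2 stood at 0.22 ± 0.12 and Acly, which makes cytosolic acetyl-CoA, at 0.11 ± 0.07. The median was 0.37 in batch 1, where all 28 were positive, and -0.05 in batch 2, where 10 were. In batch 2 without replicate 4, the median of the mean differences was 0.06. After 24 h the median had been 0.51.

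The medians of the cell cycle lists over the 10 sets were near 0 after 48 h, and single sets went both ways. The median difference of the mitosis genes was 1.14 in replicate 5 of batch 1, with 36 of 36 positive, 0.62 in replicate 3 of batch 1, -0.27 in replicate 6 of batch 2 and -1.24 in replicate 4 of batch 2, with 0 of 36 positive. For the replication genes it ran from -0.58 to 0.89, in the sets with the lowest and highest mitosis median. Of the genes of DNA replication and S phase, 45 of 51 were positive, with a median of 0.09, and 2 had an unadjusted p under 0.05, Dut (0.21 ± 0.08) and Pole2 (0.26 ± 0.12). Pcna, the sliding clamp, had 90.4 to 217 FPM in control and 103 to 245 FPM in EGF and a log2-fold change of 0.10 ± 0.09. Rrm1 had 0.08 ± 0.08. Of the genes of spindle and mitosis, 33 of 36 were positive, with a median of 0.11, and 0 had an unadjusted p under 0.05. Cdk1, the kinase that drives entry into mitosis, had 27.9 to 116 FPM in control and 29.3 to 128 FPM in EGF and a log2-fold change of 0.19 ± 0.14. Top2a stood at 0.09 ± 0.17 and Cdc25b at 0.20 ± 0.12. Without replicate 4 of batch 2, all 51 and all 36 genes were positive, where 7598 of all 15796 genes were. The medians of the replication and mitosis lists were then 0.17 and 0.28. An unadjusted p under 0.05 was reached by 8 and 11 of these genes, all higher, where 3.78% of all genes were.

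After 24 h the same lists had medians of 1.15 and 1.46. The log2-fold change was smaller after 48 h than after 24 h at an unadjusted p under 0.05 for 50 of 51 replication genes and for 36 of 36 mitosis genes, where 9.93% of all genes were. None of these differences had an FDR under 0.05. Of the G1 cyclins and CDK inhibitors, 9 of 17 were positive and 0 had an unadjusted p under 0.05. Ccnd2 stood at -0.09 ± 0.09 and the inhibitor Cdkn1a at -0.02 ± 0.06.

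Of the contractile genes 14 of 19 were negative, with a median of -0.14, and 3 had an unadjusted p under 0.05, all lower, where 2.88% of all genes were. The median difference was below 0 in 8 of 10 sets, and it was 0.04 in replicate 1 and 0.43 in replicate 4 of batch 2. Pdlim3 (chr8:45885461-45919548), an actinin-associated protein, had 0.464, 2.93 and 4.06 FPM in control and 0.205, 1.81 and 3.43 FPM in EGF and was lower in all 10 sets, with a log2-fold change of -0.83 ± 0.25. The others were the integrin Itga8 (-0.58 ± 0.22) and Ldb3 (-0.37 ± 0.14, or -0.28 without replicate 4 of batch 2, where it missed that p). Acta2, smooth muscle actin, had 515, 1808 and 7500 FPM in control and 462, 2054 and 6806 FPM in EGF. Its log2-fold change was -0.29 ± 0.15, with -0.58 in batch 1 and 0.0015 in batch 2. Cald1 stood at -0.08 ± 0.10.

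Among the listed matrix genes, Eln had the lowest value. Eln (chr5:134702593-134747323), elastin, had 3.32, 174.2 and 787 FPM in control and 1.72, 63.7 and 395 FPM in EGF and was lower in 9 of 10 sets. Its log2-fold change was -1.15 ± 0.33 (edgeR FDR 0.705), and -0.77 without replicate 4 of batch 2, in which the difference was -3.51. Of the list, 13 of 18 were negative and 3 had an unadjusted p under 0.05, all lower (2.88% of all genes), namely Eln, Mfap4 (-0.62 ± 0.21) and Fbln5, which links elastin to the cell (-0.58 ± 0.21, or -0.31 without replicate 4 of batch 2). Fbln2 stood at 0.09 ± 0.10. Of the small leucine-rich proteoglycans 7 of 9 were negative and 0 had an unadjusted p under 0.05, with Fmod at -0.63 ± 0.34, Prelp at -0.19 ± 0.29 and Dcn at 0.18 ± 0.25. Of the collagens 9 of 17 were positive, with Col15a1 at 0.48 ± 0.19 (edgeR FDR 0.953), Col1a2 at 0.11 ± 0.16 and Col1a1 at 0.01 ± 0.15. Among 20 proteases and inhibitors, Plau, the urokinase, had 0.31 ± 0.15 (0.19 without replicate 4 of batch 2) and Timp4 -0.44 ± 0.20 at an unadjusted p under 0.05 (Timp4 missed it without that set), and Timp2 (-0.03 ± 0.08) did not.

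Of the PDGF and FGF genes 11 of 15 were negative, and 4 had an unadjusted p under 0.05, all lower, where 2.88% of all genes were. These were the receptors Fgfr2 (-0.40 ± 0.12) and Fgfr3 (-0.94 ± 0.40), the decoy Fgfrl1 (-0.19 ± 0.08) and the ligand Pdgfa (-0.27 ± 0.11). Of the 4, Fgfr2 (-0.33) kept such a p without replicate 4 of batch 2, and Fgfr3 (-0.37), Fgfrl1 (-0.14) and Pdgfa (-0.17) did not. Pdgfrb had 0.07 ± 0.11 and Fgfr1 0.15 ± 0.09. In the IGF axis 8 of 10 were negative. Igfbp2, which binds insulin-like growth factors, had 46.8, 366 and 1407 FPM in control and 27.4, 162.3 and 914 FPM in EGF and was lower in 9 of 10 sets (-0.84 ± 0.27), whereas Igfbp7 stood at 0.08 ± 0.12. Of the cytokine and chemokine genes 14 of 19 were positive, and Cxcl16 (0.32 ± 0.10) and the receptor Il1rl1 (0.61 ± 0.27) had an unadjusted p under 0.05. Cxcl12 stood at -0.02 ± 0.11 and Csf1 at 0.04 ± 0.10.

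In the remaining lists 0 genes had an unadjusted p under 0.05. Of the ribosome biogenesis genes 27 of 34 were positive, with Npm1 at 0.05 ± 0.08, Ncl at 0.07 ± 0.07 and Noc3l at 0.11 ± 0.06. Of the FOXO and quiescence genes 10 of 21 were, with Txnip at -0.05 ± 0.11, Btg2 at -0.07 ± 0.06 and Selenop at -0.0015 ± 0.24. Of the glycolysis genes 17 of 26 were, with Aldoa at 0.02 ± 0.08, Eno1 at -0.01 ± 0.10 and Eno2 at 0.20 ± 0.10. Of the ATF4 and amino acid genes 10 of 21 were, with Atf4 at 0.01 ± 0.10, Nars at 0.0044 ± 0.059 and Psat1 at 0.16 ± 0.11. The genes used as references in the study, Gapdh, Eef2, Hsp90aa1 and Hsp90ab1, stood at 0.06 ± 0.09, 0.01 ± 0.09, -0.05 ± 0.09 and 0.06 ± 0.07.

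**Figure D4:**
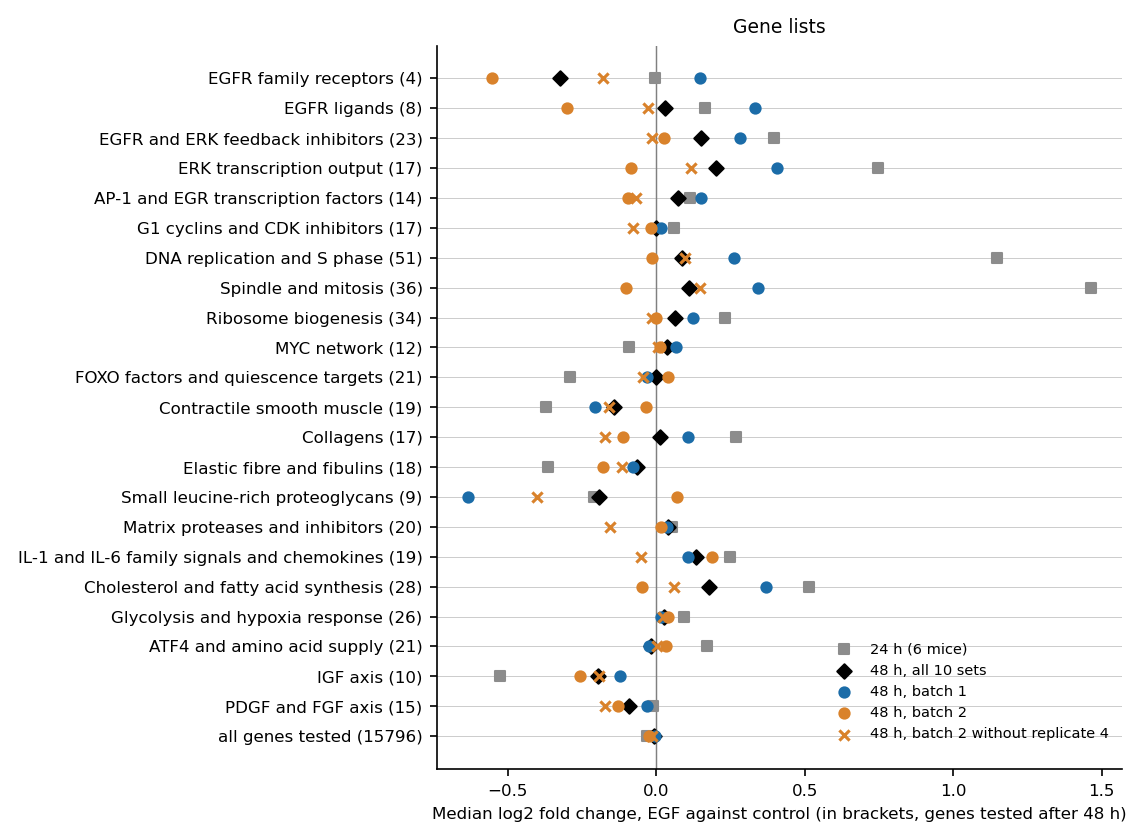
Median log2-fold change of EGF against control for each gene list, with the number of tested genes in brackets, after 24 h (squares), after 48 h in all sets (diamonds) and in each batch (circles), and as the median of the mean differences in batch 2 without replicate 4 (crosses). The medians of the mitosis and replication lists are 1.46 and 1.15 after 24 h and 0.11 and 0.09 after 48 h.

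The promoters of 3 of these genes are printed to show where they hold a motif of the search, Scg2 and Pdlim3 as genes with a negative log2-fold change and Cdk1 for the mitosis list. They run from 250 bases before to 50 bases after the start site in RefSeq (GRCm38.p6). Scg2 (chr1:79439977-79440276, minus strand) and Pdlim3 (chr8:45885237-45885536, plus strand) have the cAMP response element TGACGTCA, in capitals, with its first base at -68 and -48. Cdk1 (chr10:69352863-69353162, minus strand) has the cell cycle homology region TTTGAA, in capitals, at -71 and -15.
Scg2: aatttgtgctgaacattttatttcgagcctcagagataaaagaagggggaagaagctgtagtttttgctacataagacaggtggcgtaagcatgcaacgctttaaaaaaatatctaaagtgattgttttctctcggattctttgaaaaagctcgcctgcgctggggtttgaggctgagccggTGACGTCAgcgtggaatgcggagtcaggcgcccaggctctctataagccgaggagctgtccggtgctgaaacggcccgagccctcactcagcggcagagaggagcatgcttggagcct
Pdlim3: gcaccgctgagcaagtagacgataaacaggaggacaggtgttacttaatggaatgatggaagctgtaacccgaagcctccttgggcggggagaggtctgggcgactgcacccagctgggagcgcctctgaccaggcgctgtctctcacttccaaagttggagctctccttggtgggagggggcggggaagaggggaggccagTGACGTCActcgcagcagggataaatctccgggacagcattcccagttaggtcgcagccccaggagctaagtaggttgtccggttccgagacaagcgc
Cdk1: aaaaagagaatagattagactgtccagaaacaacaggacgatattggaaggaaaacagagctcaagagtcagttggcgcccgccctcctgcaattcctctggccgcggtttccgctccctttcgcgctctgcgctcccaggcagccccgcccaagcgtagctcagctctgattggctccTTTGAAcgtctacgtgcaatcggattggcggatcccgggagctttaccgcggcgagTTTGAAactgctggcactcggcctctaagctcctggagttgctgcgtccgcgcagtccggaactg
Read on both strands, the cAMP response element was in 1.79% of 32851 promoters of 27025 genes. The cell cycle homology region was in 17.9% of them and in 71% of 31 promoters of the mitosis list, of whose 36 genes 29 were matched. A match of letters is a description and not a binding site.

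The batches differed in their values. In batch 1 alone 8 genes were called (0.0506%), and in batch 2 alone 0 were, with 1914 (12.1%) and 1492 (9.45%) at an unadjusted p under 0.05. Of the 8, 5 were higher (0.0317%) and 3 lower in EGF (0.019%). Over the 10394 genes the log2-fold changes of the batches had a Pearson r of -0.321, and of -0.111 without replicate 4 of batch 2. The genes are not independent, so no p is given. The test of the difference between the batches called 0 of 15796 genes (0.0%), with 2779 at an unadjusted p under 0.05 (17.6%). DESeq2 called 4, namely B2m, Ikzf5, Eid1 and Zfp109.

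Of the 8 genes called in batch 1, Scg2 (-1.71), Kcne4, a potassium channel subunit (-0.94), and Fst, the activin antagonist follistatin (-0.57), were lower in EGF. Their values in batch 2 were -0.25, -0.58 and 0.03, and the mean differences in batch 2 without replicate 4 were -0.80, -0.93 and -0.36. Higher were Prl2c3 (0.81 and 0.19 in batch 2), the cystine carrier Slc7a11 (0.81 and -0.30), Fgd6 (0.71 and -0.14), the ETS factor Etv5 (0.53 and -0.14) and the pseudokinase Trib2 (0.47 and 0.15). Prl2c3 belongs to a family of close copies, so that its counts are uncertain. Without replicate 4, the mean differences in batch 2 were 1.17 for Prl2c3, 0.10 for Slc7a11, -0.17 for Fgd6, 0.09 for Etv5 and 0.21 for Trib2. A mean difference is not the fitted log2-fold change, so the signs of these values cannot be compared directly. By mean difference, Scg2 stood at 0.49 in batch 2 with replicate 4 and at -0.80 without it. The FDR of the batch difference was 0.193 or more for each of the 8. In the 10 sets together their log2-fold changes were -1.05, -0.76, -0.28, 0.54, 0.26, 0.28, 0.20 and 0.31 in this order.

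The 100 genes with the smallest p after 24 h were taken, and 99 were measured after 48 h, of which 61 had been higher and 38 lower. In 88 of 99 (88.9%, 95% Wilson interval 81.2% to 93.7%, counting error only) the sign was the same after 48 h, where it was for 54.5% of 14528 genes. The interval takes the genes as independent, which they are not, and leaves out the spread between sets. Single sets ran from 28 to 94 of 99. The median was 0.14 for the 61 and -0.16 for the 38, beside 1.01 and -1.05 after 24 h. The genes were chosen by their 24 h values, which favours a smaller size after 48 h, so only the sign is read from them. At an unadjusted p under 0.05, 21 of the 99 differed from control after 48 h, with the same sign in all 21.

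The share depended on the batch. It was 97 of 99 in batch 1 and 54 of 99 in batch 2, or 74 of 99 in batch 2 without replicate 4. Within single sets it ran from 67 to 94 in batch 1. In batch 2 it was 57, 74, 37, 80 and 28 for replicates 1, 2, 4, 5 and 6. The test of the difference between 48 h and 24 h called 0 of 15029 genes (0.0%), with 2731 at an unadjusted p under 0.05 (18.2%). DESeq2 called 554, and edgeR without a filter on low counts called 425. Time, mice and sequencing batch cannot be told apart in this comparison.

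**Figure D5:**
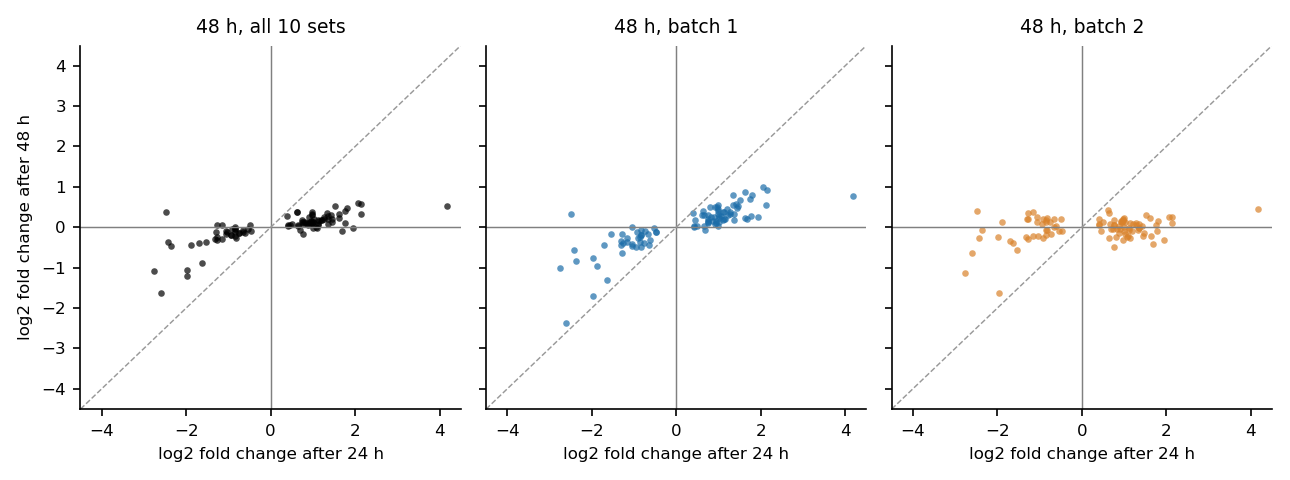
Log2-fold change with EGF after 24 h (x axis) and after 48 h (y axis) of the 99 genes chosen by their p after 24 h, with the line of equal change dashed. The points keep to the sign of the 24 h change in 97 of 99 genes in batch 1 and in 54 of 99 in batch 2.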

How the data were processed

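Poly(A) RNA was sequenced by the authors, and reads were aligned to mm10 with HISAT2 2.1.0 and counted per gene over exons with featureCounts, with multi-mapped reads counted, per the study's methods. The deposited values are raw counts for 55401 genes, and 34819 were above 0 somewhere. All of the columns were assigned to samples by the labels.

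Counts were tested with edgeR 4.0.16 (quasi-likelihood test, TMM, filterByExpr) in R 4.3.3 over the 40 libraries of 48 h with culture set and treatment as terms (the study used animal and treatment), and called at a Benjamini-Hochberg FDR under 0.05. Interaction terms gave the difference between batches and times, and the 42 libraries of 24 h were fitted separately. The 3 receptors were tested with an exact sign-flip permutation test in SciPy 1.17.1. On simulated counts with the same change in every set, 156 of 200 changed genes were recovered among 168 calls. The set numbers paired the libraries: deviations from the group means correlated above 0.1 in 57 of 60 pairs, and the other 3 were those of the control of replicate 4 of batch 2, so the set was kept as a block. No 2 libraries were duplicates (the closest pair had a chi-square per degree of freedom of 7.88, where sampling noise gives 1). That pair was the control library of replicate 4 and the EGF library of replicate 2 of batch 2. The next, at 8.92, was control and EGF of replicate 4 of batch 1.

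Named genes were the 3 receptors, the genes called after 24 h, the 8 higher and 8 lower genes with the smallest p among those on the same side in all 10 sets, for each list the 2 with the highest level and the one with the smallest p, and the study's reference genes. Of these, 88 are given, and some that the rule selects are not reported here. A further 27 were named after their values were seen, which are the genes called in batch 1 and list members at an unadjusted p under 0.05, as were the few genes called by DESeq2 or the likelihood ratio test. Members and lists were chosen with earlier results of these data known. Alternatives were DESeq2 1.42.0, limma-voom (limma 3.58.1), the likelihood ratio test, other scaling, filters, blocks and libraries, and leaving out each set. Intervals cover counting error only where so stated. Promoters and motifs were read from RefSeq, and gene positions from GENCODE on GRCm38.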

Additional observations from a re-analysis of the deposited data

Results flagged for a closer look

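Of 117 groups of 10 values tested for 1 value far from the others, 33 held one, and in 29 of them it was replicate 4 of batch 2. Chance gives about 1 in 20 for a single group. Nearly all groups are genes read in the same 10 pairs, so 1 unlike library recurs across them. The groups are not independent and that set had already been singled out, so the count is a description and no test of it. In that set the SD over genes of the difference between EGF and control was 0.998 and the correlation of the control library with its partner was 0.852. Its difference between EGF and control on log2(FPM + 0.5) lay above the other 9 sets for Egfr (1.59), Agtr1a (2.28), Tbxa2r (2.54), Scg2 (5.69), Fbln7 (3.88), Mgp (2.19), Col1a2 (2.15), Fmod (3.1), Kcne4 (6.96), Fst (3.03), Plau (2.08), Nrg2 (1.89), Igfbp7 (1.25), Selenop (3.61), Prelp (3.41), Timp2 (0.656), Eno2 (1.03) and Atf4 (0.836). It lay below them for Cyp26b1 (-2.43), Cbr2 (-4.81), Ndnf (-3.25), Fbln5 (-2.4), Eln (-3.51), Nrg1 (-3.42), Fgfr3 (-3.85), Hbegf (-2.24) and Maff (-1.21). Replicate 2 of batch 2 stood apart for Erbb3 (-3.3), and replicate 6 of batch 2 for Aldoa (0.552), Cdkn1a (0.376) and Eef2 (0.871).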

How the results depend on the processing

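The count of 0 genes for EGF against control after 48 h was 0 with DESeq2, limma-voom, DESeq2's size factors in edgeR, no filter on low counts, a minimum of 10 counts, the mouse number as block, batch 2 alone, the control and EGF libraries alone, the study's definition of a call, and without each culture set in turn. It was 3 with edgeR's likelihood ratio test (Fxyd3, Ifi206 and Gm13288) and 8 in batch 1 alone. The difference between batches gave 4 genes with DESeq2 and 10 without a filter, and the difference between 48 h and 24 h gave 554 and 425. After 24 h, 425 genes were called with DESeq2, about 1.6e+02 without a filter and 0 to 371 when each mouse was left out in turn, with 371 without replicate 6 and 44 without replicate 4. Without replicate 4 of batch 2 the share of the 24 h genes with the same sign was 96% and 99 genes lay on one side of control in all 9 sets. The mean difference within a set ranged from -0.0489 to 0.172 for Egfr, from -0.481 to 0.00648 for Agtr1a and from -0.19 to 0.168 for Tbxa2r when each set was left out. The Agtr1a value of -0.481 without replicate 4 of batch 2 was the one past the threshold. The causes of these shifts were not tested.

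Without the replicate block, 0 genes were called after 48 h and 0 after 24 h, with 54 in place of 774 genes at an unadjusted p under 0.05 after 48 h, and the log2-fold change turned sign to the value given for Tbxa2r 0.0608, Kcne4 0.151, Fst 0.123, Aldoa -0.00281, Col1a1 -0.00399, Cdkn1a 0.00497, Selenop 0.418 and Prelp 0.156. The block changed no other call. With the mouse number as block, 150 genes had an unadjusted p under 0.05. Values that turned sign elsewhere were, with DESeq2, Mxd4 -0.00125 and, with DESeq2's size factors, Mxd4 -0.00126 and, with limma-voom, Tbxa2r 0.0715, Kcne4 0.202, Mxd4 -0.00558, Selenop 0.132, Prelp 0.00852 and Eef2 -0.00175 and, with a minimum of 10 counts in every library, Mxd4 -0.00283 and Nars -0.000876. Further ones were, with the mouse number as block, Tbxa2r 0.0866, Txnip 0.0273, Slc7a11 -0.0572 and Selenop 0.102 and, without a filter on low counts, Selenop 0.00954. In batch 1 alone the genes that turned were Ung 0.2, Ccnd2 0.175, Nrg1 0.365, Aldoa -0.0206, Erbb3 0.225, Hbegf 0.0478, Maff 0.102, Max -0.00704, Cald1 0.0334, Dcn -0.103, Eno1 0.0205 and Atf4 -0.122. In batch 2 alone the genes that turned were Agtr1a 0.267, Tbxa2r 0.347, Cdca7 -0.00687, Fbln7 0.13, Ccnd1 -0.14, Fosl1 -0.0914, Top2a -0.211, Acta2 0.00151, Cxcl12 0.17, Scd2 -0.0913, Acly -0.0986, Txnip 0.257, Etv5 -0.138, Fgd6 -0.144, Fst 0.0304, Slc7a11 -0.297, Lss -0.0601, Scd1 -0.0492, Col1a1 -0.0694, Mxd4 -0.0434, Selenop 0.244, Timp2 0.0551, Csf1 -0.0519 and Nars -0.0285. With only the control and EGF libraries they were Tbxa2r 0.0349, Mxd4 -0.0039 and Selenop 0.0607. With only the control and EGF libraries and without batch2 replicate 4 they were Egfr -0.0491, Ung 0.056, Col1a2 -0.0353, Nrg1 0.197, Igfbp7 -0.0158, Col1a1 -0.0755, Hbegf 0.0317, Maff 0.0379, Mxd4 -0.0338, Eno1 0.0106, Atf4 -0.066, Nars -0.00811 and Pdgfrb -0.014. When each set was left out, the genes that turned sign at least once ranged as follows in log2-fold change, namely Aldoa -0.0498 to 0.0425, Atf4 -0.0672 to 0.0559, Cdkn1a -0.0646 to 0.00873, Col1a1 -0.0783 to 0.0855, Col1a2 -0.0317 to 0.154, Cxcl12 -0.0787 to 0.0151, Dcn -0.0172 to 0.267, Eef2 -0.0925 to 0.0584, Egfr -0.0569 to 0.125, Eno1 -0.0674 to 0.0271, Erbb3 -0.86 to 0.121, Hbegf -0.33 to 0.0201, Hsp90aa1 -0.122 to 0.0239, Igfbp7 -0.0206 to 0.131, Maff -0.147 to 0.0282, Mxd4 -0.0324 to 0.0642, Nars -0.0113 to 0.0437, Npm1 -0.0031 to 0.0914, Nrg1 -0.361 to 0.191, Pdgfrb -0.00468 to 0.124, Prelp -0.362 to 0.112, Selenop -0.213 to 0.0496, Tbxa2r -0.201 to 0.0632, Timp2 -0.0966 to 0.0208, Top2a -0.0172 to 0.263, Txnip -0.148 to 0.0279 and Ung -0.243 to 0.0366. Of 115 named genes, 69 kept their sign under all alternatives. Values in batch 2 without replicate 4 and in single sets were added after seeing the data.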

Other observations

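The correlation over genes of the difference between EGF and control in a single set with the 24 h log2-fold change differed with the mouse number in the labels. It was 0.0568 to 0.24 in the 5 sets of mouse 7, 0.481 for mouse 8, 0.524 for mouse 9, 0.565 and -0.194 for the 2 sets of mouse 10, the latter being replicate 4 of batch 2, and -0.374 for mouse 11. Most numbers stand for 1 set, so no test was made.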
